A study of Mus musculus with 8 samples.

Results

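The genes described here are 39 lysosomal genes of the mouse testis, a list of cathepsins, glycosidases, other hydrolases, activators and membrane proteins with the progranulin gene Grn and the transcription factor gene Tfeb. They were taken by symbol from the deposited expression table, and all 39 were found among its 17127 genes and passed the minimum on low values. Ctsk passed it only through the mutant libraries. RNA-seq was done on whole adult testes, from 4 wild-type mice and from 3 mice labelled Iqch-/-, called Iqch mutants below, with 1 library per mouse. Iqch encodes an IQ motif protein of the testis. The mutants were homozygous for small deletions in a late exon, made with CRISPR/Cas9 in zygotes of the hybrid strain B6CBAF1 and kept as 2 lines, and the mice were 4 months old. The study names its line Iqch mu7 for the coverage it draws of Iqch, and the sample labels give no line for any mouse. The samples listed include 4 mutants. The authors excluded a mutant that they judged to be an outlier. The mutant libraries analysed here are those of mice 1, 2 and 4, without mutant 3.

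Lysosomes are acidic compartments in which hydrolases break down proteins, glycans and lipids delivered by endocytosis, phagocytosis and autophagy. Most soluble hydrolases reach them with a mannose 6-phosphate tag, a proton pump keeps the lumen acidic, and heavily glycosylated membrane proteins line the inside. TFEB and its relatives switch on many of these genes through E-box-like motifs in their promoters. In the testis, Sertoli cells digest residual bodies and dying germ cells in lysosomes, and macrophages of the interstitium are rich in them as well.

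Values are CPM, the reads of a gene scaled to the library total, and fold changes are mutant minus wild type on the scale of log2(CPM + 0.1). A gene was called at a limma false discovery rate (FDR) below 0.01, adjusted over all 17126 genes tested. The reads behind a library, with the smallest gap between its values taken as 1 read, an assumption, numbered 32064384 to 37551057. The targeted gene Iqch stood at 193 to 217 CPM in the wild type and at 64.8 to 69.2 CPM in the mutant, so the groups did not overlap. Its log2 fold change was -1.63 (SE 0.05, limma FDR 1.9e-10), and the two-sided exact permutation p was 0.0286, the smallest that 3 against 4 libraries allow. Over all tested genes the log2 fold change had a median of 0.12 on deposited CPM and -0.01 after division by median-of-ratios size factors. Calls in the higher direction made up 71.9% of all calls on deposited CPM and 51.9% with size factors, so counts are given under both scalings.

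Of the 39 lysosomal genes, 36 rose in the mutant, 0 fell and 3 were not called (Lamp1, Galns and Sgsh). The 36 include Ctsk, which passed the minimum only through the mutants. Of all tested genes, 36.3% were called higher and 14.2% lower. Of the lysosomal genes, 18 were called with a fold change above 2, against 8.79% of all tested genes. The log2 fold changes ran from -0.05 in Galns to 2.12 in Ctss with a median of 0.90, which is 0.78 above the median of all genes. The 36 called genes had limma FDRs from 1.6e-09 to 0.00112. Every mutant library lay above every wild-type library for 37 of the 39 genes, and for 42.8% of all tested genes.

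With size factors, 35 lysosomal genes were called higher and 0 lower, and Naglu lost its call. Among all tested genes, 27.0% were then called higher and 25.1% lower. A fold change above 2 was found for 13 of the 39 genes under this scaling, against 6.65% of all genes. Their median log2 fold change was 0.77. The genes, and the list itself, were put together with results of these libraries known, so these shares describe the list and are not independent evidence of its direction.

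**Figure D1:**
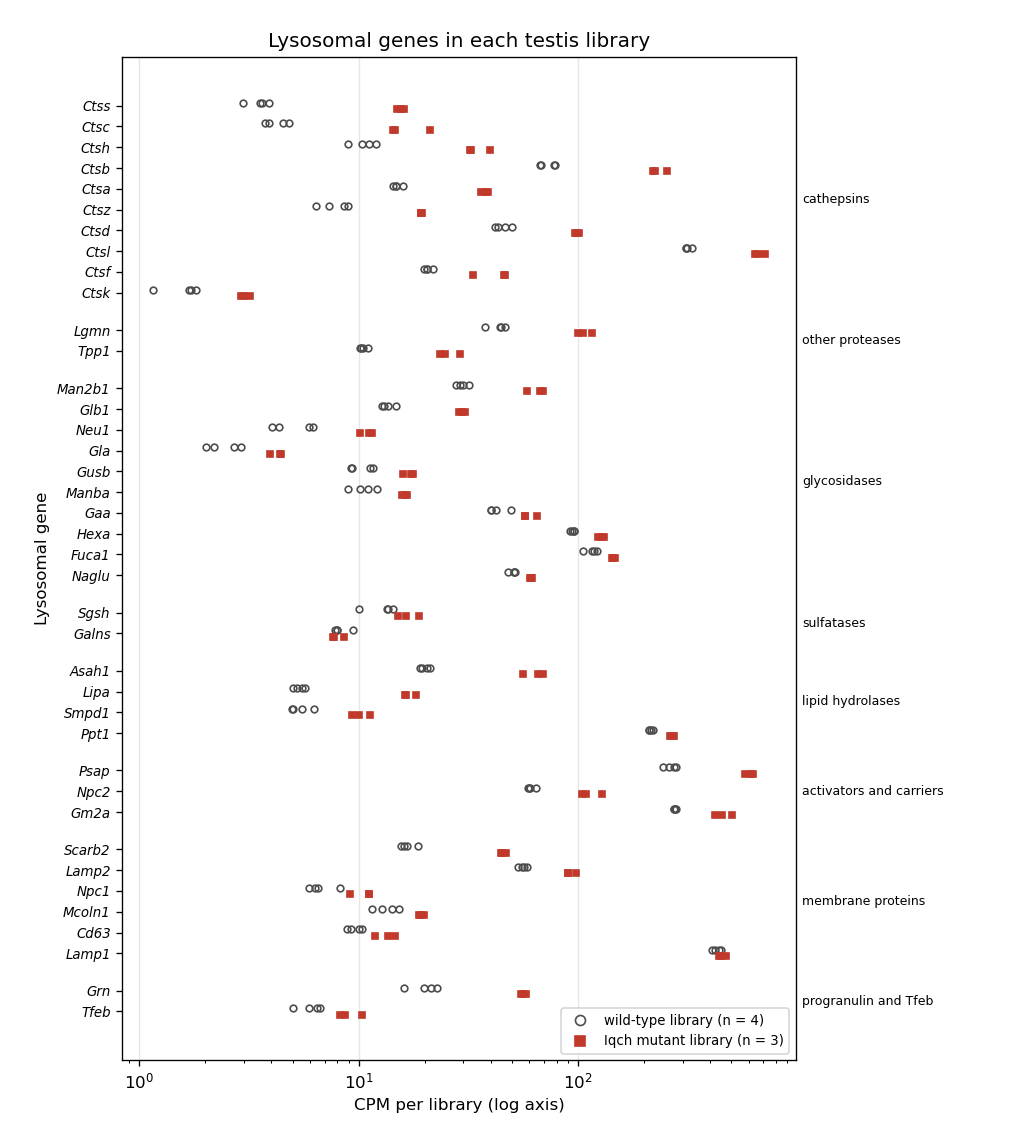
CPM (log axis) of each of the 39 lysosomal genes in each library, with open circles for the 4 wild-type libraries and filled squares for the 3 Iqch mutant libraries, ordered within each list by log2 fold change. Groups overlap for Lamp1 and Galns, and mutant squares lie to the right of all wild-type circles for the other 37 genes.

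Summed over the 39 genes, lysosomal transcripts took 0.236% ± 0.0065 (SD, n = 4) of the library in the wild type and 0.411% ± 0.0188 (SD, n = 3) in the mutant. The wild-type sums ran from 2265 to 2418 CPM and the mutant sums from 3918 to 4295 CPM, a 1.74-fold difference of the means. The sums did not overlap, and the mutants did not lie equally far from the wild type. Mutant 2 had the highest mutant value for 23 of the 39 genes and mutant 4 the lowest for 25. In the wild type, replicate 4 was the highest for 21 genes.

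The libraries also differed in markers of cell types. Because these are bulk samples and CPM is a share of the library, 3 readings of a higher value cannot be told apart. They are more cells of a type, more RNA per cell, and less RNA from other cell types. The study reported smaller testes in its mutants, fewer germ cells of each ploidy class and a lower proportion of haploid cells. Of 8 Sertoli cell markers tested, all 8 were called higher, or 7 with size factors, against 36.3% and 27.0% of all tested genes. The summed level of the Sertoli markers was 1086 to 1188 CPM in the wild type and 2293 to 2408 CPM in the mutant. The most abundant, Clu, which encodes clusterin, had a log2 fold change of 1.09 (SE 0.04, limma FDR 1.5e-09). Of 7 Leydig cell markers 6 were called higher under both scalings, against the same 36.3% and 27.0% of all tested genes. The Leydig list had a summed level of 1108 to 1322 CPM against 4627 to 4772 CPM. Insl3, which encodes the hormone INSL3, had a log2 fold change of 2.75.

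Of 12 macrophage markers 10 were called higher and 1 lower under both scalings. Over all tested genes the shares were 36.3% and 14.2%, or 27.0% and 25.1% with size factors. The 10 include Cd14, Cd163 and Tyrobp, which passed the minimum only through the mutants. The lower one was Aif1, at 368 to 403 CPM in the wild type and 265 to 283 CPM in the mutant, which made up most of the list's CPM in the wild type. The list summed to 467 to 513 CPM in the wild type and 565 to 627 CPM in the mutant, and without Aif1 to 98.4 to 110.1 CPM and 300.5 to 346 CPM. Endothelial markers summed to 12.4 to 15.9 CPM and 28.6 to 29.7 CPM, with 2 of 4 called higher, against 36.3% of all tested genes. Kdr, a receptor of VEGF, had a log2 fold change of 1.81 and Cdh5, a cadherin, of 1.05, while Pecam1 (0.63) and Tek (-0.29) were not called.

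In the germ line, 8 of 9 spermatid markers were called lower, and their sum was 22093 to 23353 CPM in the wild type and 14289 to 16337 CPM in the mutant. Prm2, which encodes a protamine, had a log2 fold change of -0.60. Spermatocyte markers summed to 854 to 881 CPM and 799.8 to 877 CPM, with 1 of 6 called higher on deposited CPM and 3 called lower with size factors, and Piwil1 had a log2 fold change of -0.06. Spermatogonial markers summed to 117 to 129 CPM and 167 to 196 CPM with 4 of 7 called higher, 1 with size factors, and a log2 fold change of 0.29 for Uchl1. Of all tested genes, 36.3% were called higher and 14.2% lower, or 27.0% and 25.1% with size factors. The germ cell and Sertoli cell markers that were tested had reads in every library.

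Peritubular myoid markers summed to 66.2 to 90.1 CPM and 76.5 to 102 CPM. Of them, 1 of 4 was called higher, against 36.3% of all tested genes, and Acta2 had a log2 fold change of 0.28, not called. Of 5 epididymal markers 4 are not analysed here, and Rnase10 had 1.77 to 2.18 CPM and 2.98 to 4.51 CPM. Rnase10 passed the minimum only through the mutants. The part of any of these cell types in the lysosomal results was not tested. Set beside the ratio of the group means, the Sertoli sum was 2.05 times as high in the mutant, and 18 lysosomal genes had a larger ratio. The macrophage sum was 1.23 times as high, and 36 genes had a larger ratio. Without Aif1, which was left out after its values were seen, that sum was 3.13 times as high, and 6 genes had a larger ratio (Ctsb, Ctsc, Ctsh, Ctss, Lipa and Asah1). The endothelial sum was 1.99 times as high, and 19 genes had a larger ratio. The Leydig sum was 3.94 times as high, and Ctss had a larger ratio. Single genes weigh heavily on these sums. Insl3 had means of 438 and 2941 CPM within mean Leydig sums of 1198 and 4714 CPM. Clu had means of 851 and 1816 CPM within mean Sertoli sums of 1140 and 2337 CPM. Aif1, which fell, had means of 385 and 276 CPM within mean macrophage sums of 490 and 604 CPM. The median log2 fold change was 1.42 for the Leydig list, 0.88 for Sertoli, 1.61 for macrophage and 0.84 for endothelial.

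The sequences near the start of these genes were searched for the core of the motif bound by TFEB. RefSeq promoters (GRCm38.p6, 250 bases before to 50 after a start) were found for 34 of the 39 genes, the others being Asah1, Ctsb, Ctsh, Galns and Npc1. The palindrome CACGTG, read on both strands, was in at least 1 promoter of 12 of the 34 genes (35.3%) and in 7.15% of all 32851 promoters. The longer TCACGTG or its reverse complement CACGTGA, each of which holds the palindrome, was in promoters of 10 genes (29.4%) and in 3.77% of all promoters. At least 2 copies of CACGTG were found for 5 of the 34 genes and in 0.594% of all promoters. Some genes have several promoters in that set, so shares per gene and per promoter are not the same quantity, and 8.09% of all genes had a CACGTG in at least 1 promoter.

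The stretches below are those of the 5 genes with at least 2 copies, shown because they hold the densest matches. Capitals mark TCACGTG or CACGTGA, also where these overlap, and Ctsd has its copies in separate stretches of the same promoter.
Lamp1, chr8:13159081-13159169, plus strand: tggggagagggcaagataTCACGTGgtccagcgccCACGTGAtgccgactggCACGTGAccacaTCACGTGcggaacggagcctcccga
Mcoln1, chr8:3500429-3500498, plus strand: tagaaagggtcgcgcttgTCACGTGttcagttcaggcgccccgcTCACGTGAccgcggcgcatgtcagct
Ctsa, chr2:164833742-164833802, plus strand: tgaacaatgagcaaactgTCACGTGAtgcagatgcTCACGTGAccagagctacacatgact
Ctsd, chr7:142388048-142388077, minus strand: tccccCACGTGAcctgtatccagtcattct
Ctsd, chr7:142387901-142387944, minus strand: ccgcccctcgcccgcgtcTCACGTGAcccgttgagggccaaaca
Gla, chrX:134601175-134601251, minus strand: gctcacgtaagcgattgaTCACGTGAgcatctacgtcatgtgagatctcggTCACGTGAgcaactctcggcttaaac

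The Lamp1 promoter held 4 copies of CACGTG, the first 62 bases upstream of the start, and 8 of the 32851 promoters held that many. In the other stretches the first match lay 72 bases upstream for Mcoln1, 13 for Ctsa, 245 and 99 for Ctsd and 228 for Gla. The median log2 fold change was 0.89 for the 12 genes with CACGTG and 0.90 for the 22 without it, and 0.65 and 0.95 for the 10 genes with TCACGTG and the 24 without. These medians leave out the genes without a promoter, namely Ctsh (1.71), Ctsb (1.68), Asah1 (1.66), Npc1 (0.63) and Galns (-0.05). Whether the change goes with the motif was not tested. Of the 5 genes shown, Ctsa and Ctsd were called with a fold change above 2, Gla and Mcoln1 with a smaller one, and Lamp1, with the most copies, was not called. Ctss, with the largest change of the 39 genes, had none in its window. A match describes letters and is not a binding site, and the window does not cover the rest of a gene.

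Cathepsins are the main lysosomal proteases, most of them cysteine proteases, with Ctsd an aspartic and Ctsa a serine protease. All 10 rose in the mutant, 8 of them by more than 2-fold, against 36.3% and 8.79% of all tested genes. They include Ctsk, which passed the minimum only through the mutants. With size factors all 10 were called higher, 6 with a fold change above 2, against 27.0% and 6.65% of all tested genes. The 10 cathepsins had a median log2 fold change of 1.32. Their summed level rose from 482 to 523 CPM in the wild type to 1118 to 1248 CPM in the mutant, 2.35-fold in the means.

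Ctss, cathepsin S, is known for processing the invariant chain in antigen-presenting cells. In GRCm39 the gene (ENSMUSG00000038642) lies on the plus strand of chromosome 3 from 95433963 to 95463717. It stood at 3.89, 3.64, 2.98 and 3.54 CPM in wild types 1 to 4 and at 14.997, 15.53 and 16.06 CPM in mutants 1, 2 and 4. The lowest mutant was far above the highest wild type, and the mean rose from 3.51 ± 0.383 (SD, n = 4) to 15.5 ± 0.533 CPM (SD, n = 3), 4.42-fold. The log2 fold change of 2.12 (SE 0.11, limma FDR 1.1e-08) was the largest of the 39 genes under both scalings, at 1.99 with size factors.

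Ctsc, a dipeptidyl peptidase that activates serine proteases of immune cells, stood at 4.52, 4.84, 3.93 and 3.75 CPM in the wild type and at 14.3, 21.1 and 14.6 CPM in the mutant. The groups did not overlap, and mutant 2 lay above the other mutants. Its log2 fold change was 1.93 (SE 0.14, limma FDR 2.0e-07). Ctsh, an aminopeptidase, stood at 8.98 to 11.98 CPM and 32.4 to 39.7 CPM, with a log2 fold change of 1.71 (SE 0.10).

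Ctsl, cathepsin L, is an endopeptidase that Sertoli cells are known to make. The gene (ENSMUSG00000021477) sits on chromosome 13, minus strand, from 64507151 to 64518704. It was the most abundant cathepsin, at 312, 312, 316 and 331 CPM in the wild type and 664, 712 and 642 CPM in the mutant. The groups lay far apart with little spread in either, and the log2 fold change was 1.08 (SE 0.04, limma FDR 1.6e-09), or 0.95 with size factors.

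Ctsb, cathepsin B, on the plus strand of chromosome 14 from 63358384 to 63383372 (ENSMUSG00000021939), stood at 67.0, 79.0, 67.8 and 77.8 CPM in the wild type. In the mutant it was at 225, 255 and 220.0 CPM. No library of either group came near the other group, and the log2 fold change was 1.68 (SE 0.07, limma FDR 2.1e-09). Within a library Ctsl made up 63.6% ± 1.44 (SD, n = 4) of the cathepsin CPM in the wild type and 57.3% ± 0.206 (SD, n = 3) in the mutant, and the share of Ctsb was 14.6% and 19.9%. The CPM ratio of Ctsb to Ctsl was 0.229 ± 0.0183 (SD, n = 4) in the wild type and 0.347 ± 0.00997 (SD, n = 3) in the mutant, without overlap.

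The aspartic protease gene Ctsd stood at 41.7, 49.8, 43.1 and 46.6 CPM in the wild type and 101, 97.2 and 99.1 CPM in the mutant, again without overlap. Its log2 fold change was 1.13 (SE 0.06, limma FDR 1.6e-08). Ctsa, whose product also protects neuraminidase and beta-galactosidase, stood at 14.4 to 15.9 CPM and 36.3 to 39.1 CPM, with a log2 fold change of 1.33 (SE 0.06). Ctsz, a carboxypeptidase, was at 6.39 to 8.94 CPM and 19.2 to 19.4 CPM, with a log2 fold change of 1.31 (SE 0.11).

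The cathepsins with the smallest changes were Ctsf and Ctsk. Ctsf, a cysteine protease, was at 20.0 to 21.9 CPM in the wild type and at 46.3, 45.8 and 33.1 CPM in the mutant, where mutant 4 lay below the others. The log2 fold change was 0.99 (SE 0.10, limma FDR 3.1e-06). Ctsk, the collagen-cleaving cathepsin of osteoclasts, was at 1.16 to 1.82 CPM and 2.92 to 3.19 CPM, with a log2 fold change of 0.90 (SE 0.18, limma FDR 8.3e-04). No wild-type library reached the minimum of 2.2 CPM, so Ctsk was tested only through the mutants.

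Of the other proteases, Lgmn, the asparaginyl endopeptidase legumain that cuts cathepsins into their mature forms, stood at 44.5, 43.98, 37.7 and 46.5 CPM in the wild type and 106, 116 and 99.7 CPM in the mutant. The groups did not overlap, and the log2 fold change was 1.31 (SE 0.07, limma FDR 2.2e-08). Tpp1, a tripeptidyl peptidase, was at 10.2 to 11.0 CPM and 23.6 to 29.0 CPM, with a log2 fold change of 1.28 (SE 0.08).

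**Figure D2:**
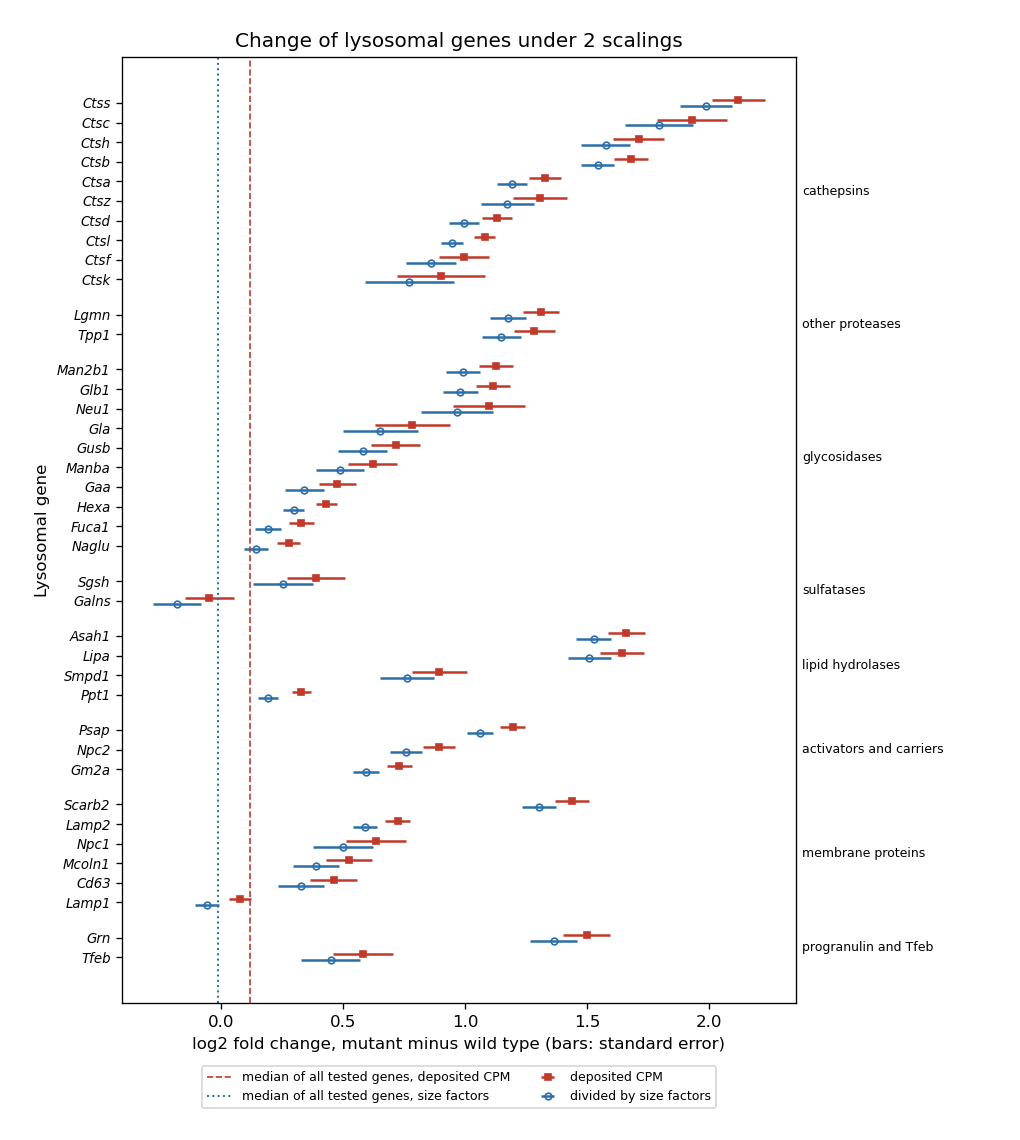
Log2 fold change of each lysosomal gene, mutant minus wild type, with bars for the standard error, on deposited CPM (filled squares) and after division by size factors (open circles). Lines mark the medians of all tested genes, 0.12 and -0.01. Most genes lie to the right of both lines, and Galns and Lamp1 lie at or to the left of them.

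Glycosidases remove sugars from glycoproteins, glycolipids and glycosaminoglycans. All 10 rose in the mutant, 3 of them by more than 2-fold, against 36.3% and 8.79% of all tested genes. With size factors 9 were called higher and 0 had a fold change above 2, against 27.0% and 6.65% of all tested genes. The 10 glycosidases had a median log2 fold change of 0.67. Their summed level was 353 to 391 CPM in the wild type and 518 to 549 CPM in the mutant, 1.43-fold in the means. Whether glycosidases and cathepsins differed in their change was not tested.

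Man2b1, the acid alpha-mannosidase, stood at 29.0, 30.0, 27.8 and 32.0 CPM in the wild type and 67.1, 69.6 and 58.4 CPM in the mutant. Its log2 fold change was 1.13 (SE 0.07, limma FDR 4.6e-08), with no overlap of the groups. Glb1, the beta-galactosidase, stood at 12.8, 13.6, 13.1 and 14.9 CPM and at 30.5, 29.6 and 28.6 CPM, also apart, with a log2 fold change of 1.11 (SE 0.07). The sialidase gene Neu1, whose product works in a complex with those of Glb1 and Ctsa, was at 4.04 to 6.23 CPM and 10.2 to 11.5 CPM, with a log2 fold change of 1.10 (SE 0.15).

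Smaller changes were found in glycosidases with a wide range of levels. Hexa, the alpha subunit of beta-hexosaminidase, stood at 94.3, 95.9, 92.4 and 96.0 CPM in the wild type and 129, 131 and 124 CPM in the mutant. The groups were apart although the log2 fold change was only 0.43 (SE 0.04, limma FDR 1.9e-06).

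Gla, the alpha-galactosidase that clears globotriaosylceramide, was at 2.02 to 2.90 CPM and 3.96 to 4.43 CPM (log2 fold change 0.78, SE 0.15). Gusb, the beta-glucuronidase, was at 9.20 to 11.7 CPM and 15.9 to 17.8 CPM (0.72, SE 0.10), and Manba, the beta-mannosidase, at 8.92 to 12.2 CPM and 15.8 to 16.7 CPM (0.62, SE 0.10). All mutants were above all wild types for each of them. Gaa, which breaks down glycogen, was at 40.2 to 49.5 CPM and 57.2 to 65.0 CPM, a log2 fold change of 0.48 (SE 0.08, limma FDR 1.4e-04). Fuca1, the alpha-fucosidase, was at 105 to 122 CPM and 142 to 147 CPM, a log2 fold change of 0.33 (SE 0.05, limma FDR 1.2e-04).

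Naglu, an enzyme of heparan sulfate breakdown, was the glycosidase gene with the smallest change. It stood at 51.3, 51.3, 47.9 and 51.4 CPM in the wild type and 61.7, 60.7 and 61.3 CPM in the mutant. The groups did not overlap and the log2 fold change was 0.28 (SE 0.05, limma FDR 2.7e-04), but with size factors it was 0.14 (limma FDR 0.0209), past no threshold.

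Neither sulfatase on the list was called. Sgsh, which takes sulfate from heparan sulfate, stood at 13.6, 10.05, 13.5 and 14.3 CPM in the wild type and 18.9, 16.4 and 15.1 CPM in the mutant. All mutants lay above all wild types, with a log2 fold change of 0.39 (SE 0.12, limma FDR 0.0128), and without wild type 4 the value was 0.45 and was called (limma FDR 0.00807). Galns, which acts on keratan and chondroitin sulfate, stood at 7.81, 7.95, 7.94 and 9.40 CPM and at 7.64, 7.77 and 8.60 CPM, overlapping. The log2 fold change was -0.05 (SE 0.10, limma FDR 0.706), and without wild type 4 it was 0.016.

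Enzymes and carriers of lipid breakdown rose in all 7 cases, under both scalings. Of all tested genes, 36.3% were called higher, or 27.0% with size factors. Asah1, the acid ceramidase, stood at 19.0, 21.1, 19.4 and 20.6 CPM in the wild type and 55.9, 69.3 and 65.9 CPM in the mutant. The groups were far apart, with a log2 fold change of 1.66 (SE 0.08, limma FDR 4.2e-09). Lipa, the acid lipase that frees cholesterol from its esters, stood at 5.53, 5.01, 5.69 and 5.25 CPM and at 16.3, 18.2 and 16.4 CPM, a log2 fold change of 1.64 (SE 0.09). Smpd1, the acid sphingomyelinase, was at 4.95 to 6.26 CPM and 9.34 to 11.2 CPM, with a log2 fold change of 0.89 (SE 0.11).

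Ppt1, the palmitoyl-protein thioesterase, had a high level and a small change. It was at 210.1 to 219 CPM in the wild type and 262 to 273 CPM in the mutant, with no overlap, and the log2 fold change was 0.33 (SE 0.04, limma FDR 8.8e-06).

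Psap encodes the precursor of the saposins, small proteins that present sphingolipids to their hydrolases. The gene (ENSMUSG00000004207) lies on the plus strand of chromosome 10 from 60113431 to 60138380. It stood at 274, 261, 244 and 280.02 CPM in the wild type and 617, 625 and 576 CPM in the mutant, and neither group came near the other. The log2 fold change was 1.195 (SE 0.05, limma FDR 2.3e-09). Gm2a, the activator that presents ganglioside GM2 to beta-hexosaminidase, was at 274 to 279.7 CPM and 423 to 506 CPM (0.73, SE 0.05). Npc2, the soluble cholesterol carrier, was at 59.0 to 64.4 CPM and 105 to 128 CPM (0.89, SE 0.07).

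Of 6 membrane protein genes 5 rose, under both scalings, and Lamp1 was not called. Of all tested genes, 36.3% were called higher, or 27.0% with size factors. The median log2 fold change of the 6 was 0.58, and their summed level was 508 to 552 CPM in the wild type and 615 to 653 CPM in the mutant, 1.19-fold in the means. Lamp1 carried most of that sum. It encodes a major glycoprotein of the lysosomal membrane and lies on the plus strand of chromosome 8 from 13209121 to 13227360 in GRCm39 (ENSMUSG00000031447).

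Lamp1 stood at 449.5, 441, 409 and 421 CPM in the wild type and 475, 449 and 438 CPM in the mutant, and the groups overlapped. The means were 430.1 ± 18.5 (SD, n = 4) and 454 ± 18.8 CPM (SD, n = 3). Its log2 fold change was 0.08 (SE 0.04, limma FDR 0.146) on deposited CPM and -0.057 (limma FDR 0.331) with size factors, so its direction turned with the scaling. By exon bases, 49.2% of the gene overlaps Grtp1 on the opposite strand, and whether the counting used strand is not given in the sources used here.

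Lamp2, whose product resembles that of Lamp1 and acts in autophagy, stood at 53.5, 55.5, 56.7 and 58.4 CPM in the wild type and 90.3, 97.9 and 89.7 CPM in the mutant. The groups were apart, with a log2 fold change of 0.72 (SE 0.05, limma FDR 1.3e-07). The CPM ratio of Lamp2 to Lamp1 within a library was 0.131 ± 0.00978 (SD, n = 4) in the wild type and 0.204 ± 0.0139 (SD, n = 3) in the mutant.

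Scarb2 encodes LIMP-2, the receptor that carries glucocerebrosidase to the lysosome, and sits on chromosome 5, minus strand, from 92589169 to 92654692 (ENSMUSG00000029426). It stood at 18.6, 15.6, 16.2 and 16.7 CPM in the wild type and 46.8, 44.7 and 45.0 CPM in the mutant. The groups were far apart, and the log2 fold change of 1.44 (SE 0.07, limma FDR 6.3e-09) was the largest among the membrane protein genes.

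The cholesterol exporter gene Npc1 was at 5.95 to 8.20 CPM in the wild type and 9.18 to 11.2 CPM in the mutant, with a log2 fold change of 0.63 (SE 0.12, limma FDR 6.0e-04). Mcoln1, a calcium channel of the lysosomal membrane, was at 11.6 to 15.4 CPM and 18.8 to 19.9 CPM (0.52, SE 0.09), and the tetraspanin gene Cd63 at 8.86 to 10.4 CPM and 11.9 to 14.6 CPM (0.46, SE 0.10). Mutants were above wild types for all of them.

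Grn encodes progranulin, a secreted protein that is cut into granulins in the lysosome. It stood at 19.9, 21.5, 16.2 and 22.7 CPM in the wild type and 58.1, 56.2 and 54.9 CPM in the mutant, with no overlap and a log2 fold change of 1.497 (SE 0.10, limma FDR 5.4e-08). Tfeb, on the plus strand of chromosome 17 from 48047837 to 48103348 (ENSMUSG00000023990), stood at 6.70, 5.97, 6.45 and 5.03 CPM and at 8.65, 10.4 and 8.26 CPM. Its groups were apart by a small margin, and the log2 fold change was 0.58 (SE 0.12, limma FDR 0.00112), the highest FDR of the called genes. TFEB acts by moving to the nucleus, which RNA levels do not measure.

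**Figure D3:**
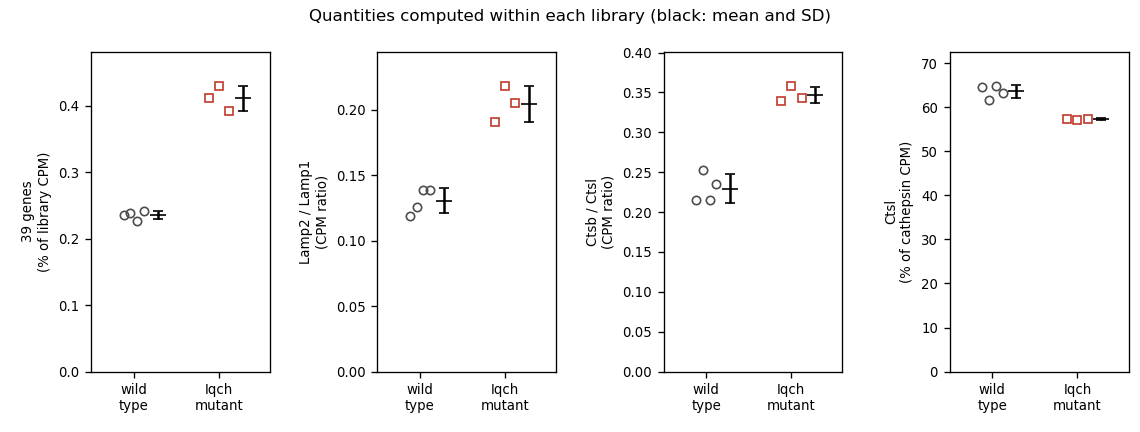
Quantities computed within each library: the 39 genes as a percent of library CPM, the CPM ratios of Lamp2 to Lamp1 and of Ctsb to Ctsl, and Ctsl as a percent of cathepsin CPM. A factor between libraries cancels in all but the first. The first is a share of the library, as CPM is, and depends on all other genes as well. Circles are wild-type libraries (n = 4), squares mutant libraries (n = 3), and black marks the mean and SD, and in each panel the groups do not overlap.

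Levels between genes can be compared only per length, here CPM per kb of the joined exons of all annotated transcripts. That length can exceed the length of the transcripts made in testis, so the order of genes below depends on the annotation. In the wild type Psap (82.9) and Lamp1 (82.5) led, followed by Gm2a (63.7), Ctsl (47.6) and Ppt1 (27.3). In the mutant Psap stood at 189.8, Gm2a at 106, Ctsl at 101, Lamp1 at 87.1 and Ctsd at 35.8 CPM per kb. By this measure Lamp1 was close to Psap in the wild type and below Gm2a and Ctsl in the mutant. As a share of the CPM of the 39 genes, Lamp1 made up 18.3% in the wild type and 11.1% in the mutant. Across the 39 genes the log2 wild-type CPM, not per kb, and the log2 fold change had a Pearson r of -0.29 and a Spearman rho of -0.23. Over all 17126 tested genes, which share the same libraries, they were -0.32 and -0.33. The wild-type level also enters the fold change, with the opposite sign, so a negative value is partly built in.

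Other genes of the lysosomal pathway were counted from lists of 73 further genes, of which 69 were tested. Of these, 54 were called higher, 1 lower and 14 not called, against 36.3% higher and 14.2% lower over all genes. Their median log2 fold change was 0.60. With size factors 49 were called higher and 5 lower, against 27.0% higher and 25.1% lower over all genes.

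The proton pump list holds the subunits and accessory proteins of the V-ATPase. Of 20 tested, 13 were called higher, 1 lower and 6 not called, against 36.3% higher and 14.2% lower over all genes. The median log2 fold change of the 20 was 0.34. With size factors 10 were called higher and 3 lower, against 27.0% and 25.1% of all genes. The largest changes were those of Atp6v0e2 (1.19, SE 0.07), Atp6v0c (1.09, SE 0.07) and Atp6v0a1 (1.09, SE 0.06), all subunits of the membrane sector. Atp6v0a1 stood at 28.1, 29.2, 26.9 and 29.2 CPM in the wild type and 60.1, 57.8 and 62.7 CPM in the mutant. The lower one was Atp6v1e2, a subunit form of the testis, at 62.0 to 65.9 CPM and 54.7 to 58.8 CPM (-0.17, SE 0.05), named after its values were seen. With size factors it was also called lower, at -0.31 (limma FDR 1.9e-04). On deposited CPM the call was lost when single libraries were left out. Without wild type 1, 2 or 3, or without mutant 2 or 4, 0 genes of these lists were called lower.

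For the mannose 6-phosphate tag and its receptors, 4 of 6 genes were called higher and 0 lower, against 36.3% and 14.2% of all tested genes. With size factors 4 were called higher and 1 lower, against 27.0% and 25.1%. The median of the 6 was 0.53. The list was led by Nagpa (0.70, SE 0.11), which uncovers the tag, Gnptg (0.60, SE 0.08), a subunit of the enzyme that adds it, and M6pr (0.57, SE 0.05), a receptor for it. M6pr stood at 39.4 to 41.3 CPM in the wild type and 58.1 to 61.6 CPM in the mutant.

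Of 12 genes for relatives of TFEB and for the docking of mTORC1 on the lysosome, 11 were called higher and 0 lower under both scalings. Over all tested genes the shares were 36.3% and 14.2%, or 27.0% and 25.1% with size factors. The median of the 12 was 0.61. Lamtor3 (0.89, SE 0.10) and Lamtor4 (0.87, SE 0.08) encode parts of the Ragulator scaffold, and Mitf (0.88, SE 0.17) a relative of TFEB, at 1.34 to 1.75 CPM and 2.50 to 3.35 CPM. Mitf passed the minimum of 2.2 CPM only through the mutants.

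Of 31 further lysosomal enzymes and transporters, 26 were called higher and 0 lower, against 36.3% and 14.2% of all tested genes. With size factors 24 were called higher and 1 lower, against 27.0% and 25.1%. The median of the 31 was 0.87. Among the called genes were Hgsnat (1.48, SE 0.08), an acetyltransferase of heparan sulfate breakdown, and Laptm5 (1.39, SE 0.16), a membrane protein of blood cell lysosomes. Hgsnat stood at 17.6 to 18.8 CPM in the wild type and 44.9 to 55.6 CPM in the mutant, and Laptm5 at 3.95 to 5.24 CPM and 9.15 to 14.7 CPM.

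**Figure D4:**
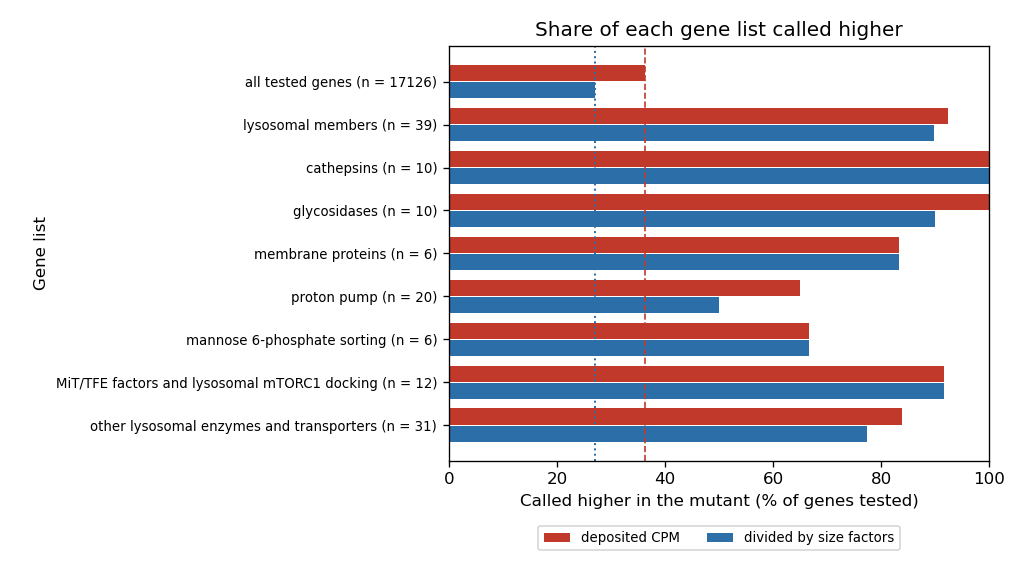
Percent of tested genes called higher in the mutant in each list, on deposited CPM and after division by size factors, with n the number of genes tested. Vertical lines mark the shares over all tested genes, 36.3% and 27.0%, and the lists drawn lie to the right of the line of their own scaling. The smaller lists, such as the sulfatases with 0 of 2 called, are not drawn.

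Exon bases are shared with another gene for 22 of the 39 lysosomal genes, and for 15 of them that gene is in the table as well. Reads from shared bases cannot be told apart without strand or position. Ctsa overlaps Pltp over 24.3% of its exon bases, with means of 6.70 and 21.6 CPM for Pltp in wild type and mutant. Ctsb overlaps Fdft1 over 15.4%, with means of 390.1 and 352 CPM for Fdft1. Ctsz overlaps Nelfcd over 29.2%, with 28.1 and 33.5 CPM for Nelfcd. These lie on opposite strands. Ctsd overlaps Gm49369 over 29.2% on the same strand, where strand cannot tell reads apart. On opposite strands, Grn overlaps Fam171a2 over 32.8% and Ctsl overlaps Gm47123 over 26.1%. Gm49369, Fam171a2 and Gm47123 are not in the table.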

How the data were processed

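RNA was extracted from whole adult testes and sequenced as 1 library per mouse. The authors used Trimmomatic for trimming, Subread for mapping (GRCm39) and featureCounts for reads per gene, kept genes above a read minimum, and made their own calls with edgeR and DESeq2. The deposited values are CPM for 17127 genes, with no factor between samples. The strand setting and the annotation release are not given in the sources used here. With the smallest gap between values taken as 1 read, a step was 0.0266 to 0.0312 CPM, which limits the precision of low genes. Nothing states that the samples differed in batch, and each is labelled as a sample of its own, so p-values measure the spread between these mice.

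A gene was tested if 2 samples of either group reached 2.2 CPM. The test was limma 3.58.1 (R 4.3.3), with lmFit and a trended eBayes fit, on log2(CPM + 0.1), a scale that understates changes of low genes. Benjamini-Hochberg adjustment ran over 17126 genes, with calls at an FDR of 0.01. The fit was tested on simulated data. Iqch was also compared with an exact permutation test. Alternatives covered the pseudocount (1 and 0.01), the minimum (none and 5 CPM), scaling by median-of-ratios size factors, a block for the replicate number, and leaving out 1 library at a time. Positions came from GENCODE M39 (GRCm39), in which 17045 genes (99.5%) were found, and promoters from RefSeq (GRCm38.p6). Python 3.11.15, NumPy 2.4.6, pandas 2.3.3, SciPy 1.17.1 and matplotlib 3.10.9 were used.

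The members and lists were chosen with earlier results of these data known. Named genes are all members, the 3 called genes with the largest change of each other pathway list, the marker of each list with the highest mean CPM over all 7 libraries and Iqch, and 1 pathway gene that this rule names is not reported here. Aif1 was left out of a sum, and Cd14, Cd163, Tyrobp, the other endothelial markers, Atp6v1e2 and overlapping genes were named, after values were seen. Genes on the lists but outside the table, and mutant 3, are not analysed here.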

Additional observations from a re-analysis of the deposited data

Results flagged for a closer look

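Of 61 named genes checked, 3 had a wild-type library that stood apart from the other 3 by more than the 95% limit of Dixon's test for 4 samples, and chance alone gives about 1 such library in 20 groups. Wild type 4 had 9.40 CPM of Galns against 7.81 to 7.95 CPM in the others. Wild type 3 had 47.9 CPM of Naglu against 51.3 to 51.4 CPM. Wild type 2 had 6.73 CPM of Lamtor3 against 7.76 to 7.93 CPM. The mutant group, with 3 libraries, is too small for this comparison.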

How the results depend on the processing

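The number of the 39 lysosomal genes called was 36 with a pseudocount of 1 or 0.01 and with no minimum, 35 with size factors, and 34 of 37 tested at a minimum of 5 CPM, which left out Ctsk and Gla. It was 36 to 37 when each library was left out. Cathepsins stayed at 10 calls and membrane proteins at 5 in these fits, except that 9 of 9 cathepsins were tested and called at 5 CPM. Results that turned direction were 2, neither of them called, namely Lamp1 to -0.057 with size factors and Galns to 0.016 without wild type 4 (-0.098 to 0.016 over the libraries left out). Naglu (0.14) lost its call with size factors and Sgsh (0.45) gained one without wild type 4. Of the markers, Uchl1 lost its call with size factors (0.16), with the block (0.23) and without wild type 2 (0.28), wild type 3 (0.23) or mutant 2 (0.23), Piwil1 (-0.20) was called lower with size factors, and Acta2 (0.41) was called higher without mutant 4. The log2 fold change of Iqch was -1.66 to -1.60 with each library left out. Same-numbered samples did not deviate together (r of 0.0261, 0.0094 and -0.0977 for numbers 1, 2 and 4). No pairing by number was seen, though 3 such values cannot exclude one. With the replicate number as a block, 36 lysosomal genes were called, 51 of the other pathway genes against 55, and Iqch was at -1.61. In that fit 0 of the other pathway genes were called lower, so Atp6v1e2 lost its call. The edgeR and DESeq2 alternatives, planned on reads recovered from the steps of the CPM, were not run, since whole reads came out with a step taken from the smallest gap between values but not with one taken from the smallest values. A step taken as 1 read is at most 0.0312 CPM, against 1.16 CPM for the lowest value of the 39 genes, and the number of mutant libraries was 3.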
